A study of Homo sapiens with 4 samples.

Results

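Genes for immune checkpoint ligands and inhibitory receptors were examined in MV4-11 cells upon CEBPG knockdown. They were chosen by name and with earlier results of these data known. The genes were CD274, PDCD1LG2, CD80, CD86, CD47, SIRPA, VSIR, HAVCR2, LGALS9 and LAIR1. All 10 are listed among the 16490 genes of the expression table. MV4-11 is a human acute myeloid leukemia (AML) cell line of monocytic type. The control group held 2 libraries of cells with the hairpin sh-NC and CEBPG present. The knockdown group held 2 libraries of cells with sh-CEBPG#3, a short hairpin RNA against CEBPG, and per the study's methods the hairpins were delivered in a puromycin-selected lentiviral vector. The comparison made here rests on 1 hairpin in MV4-11 cells, so an effect of this hairpin and an effect of less CEBPG cannot be told apart. Nothing in the labels says that replicate libraries are separate infections, and the p-values measure only the spread between these libraries, which may be technical.

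Immune checkpoints are pairs of a ligand and a receptor by which a cell dampens the T cells, natural killer cells or macrophages that contact it. Many of the receptors carry a tyrosine motif in the cytoplasmic tail (ITIM or ITSM) that recruits the phosphatases SHP-1 and SHP-2. Leukemic blasts of the myeloid lineage can carry the ligands and, being related to monocytes, several of the inhibitory receptors as well. In bulk RNA a change in the share of cells of a type and a change in RNA per cell cannot be told apart.

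CEBPG itself, the target of the hairpin, had 30.4 and 33.6 FPKM in sh-NC libraries and 19.2 and 17.1 FPKM in sh-CEBPG#3 libraries (FPKM, fragments per kilobase of transcript scaled to the mapped reads, here summed over a gene's transcript rows). It fell by 0.78 on the log2(FPKM + 1) scale (standard error 0.09), with an adjusted p = 8.88e-05 (limma with Benjamini-Hochberg adjustment over all genes tested), and the groups did not overlap. The myeloid genes chosen as markers of the cell line were all listed, 8 of 8, and their summed level was 273 and 304 FPKM in sh-NC libraries and 403 and 373 FPKM in sh-CEBPG#3 libraries. Of the 7 tested, 4 were higher at an adjusted p under 0.05, where 18.5% of all genes tested were. Among the 4 were the macrophage genes CD68 (log2 fold change 1.14) and CSF1R (0.80). None of the 7 was lower at an unadjusted p under 0.05. Markers of T cells (0 of 5) and erythroid cells (0 of 3) had no row. Of the natural killer cell markers 1 of 4 was listed, NCAM1, at 11.3 to 15.1 FPKM and lower in the knockdown. Of the B cell markers 3 of 4 were listed, with sums of 2.35 to 3.24 FPKM. Of the epithelial and fibroblast markers 1 of 4 was listed, COL1A1, at 0.0781 FPKM at most. The part of the myeloid genes in the results below was not tested.

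Upon CEBPG knockdown, 4 of the 10 genes rose and 1 fell at an adjusted p under 0.05. Those that rose were LGALS9, SIRPA, CD47 and VSIR, by 1.30- to 1.87-fold in mean FPKM, and LAIR1 fell to 61.1% of its control mean. CD86 was tested and did not pass. The other 4, CD274, PDCD1LG2, CD80 and HAVCR2, had a mean under 0.5 FPKM over the 4 libraries and were not tested with the rest. Of the 12142 genes tested, 42.2% passed, 18.5% higher and 23.8% lower. The median log2 fold change was 0.42 over the 6 tested genes and -0.04 over all genes tested. Since the genes were chosen with earlier results known, this gap and the counts above cannot be read as unbiased. None of the 6 passed the study's threshold (unadjusted p under 0.05 with an absolute log2 fold change above 1), which 3.41% of all genes tested passed, 2.36% higher and 1.05% lower. The study applied this threshold to DESeq2 results, and here it was applied to limma on log2(FPKM + 1). Counts past it are therefore not comparable with those of the study. The groups did not overlap for any of the 6, of which 5 lay higher and 1 lower, where 71.7% of all genes tested had no overlap, 31.5% higher and 40.2% lower.

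**Figure D1:**
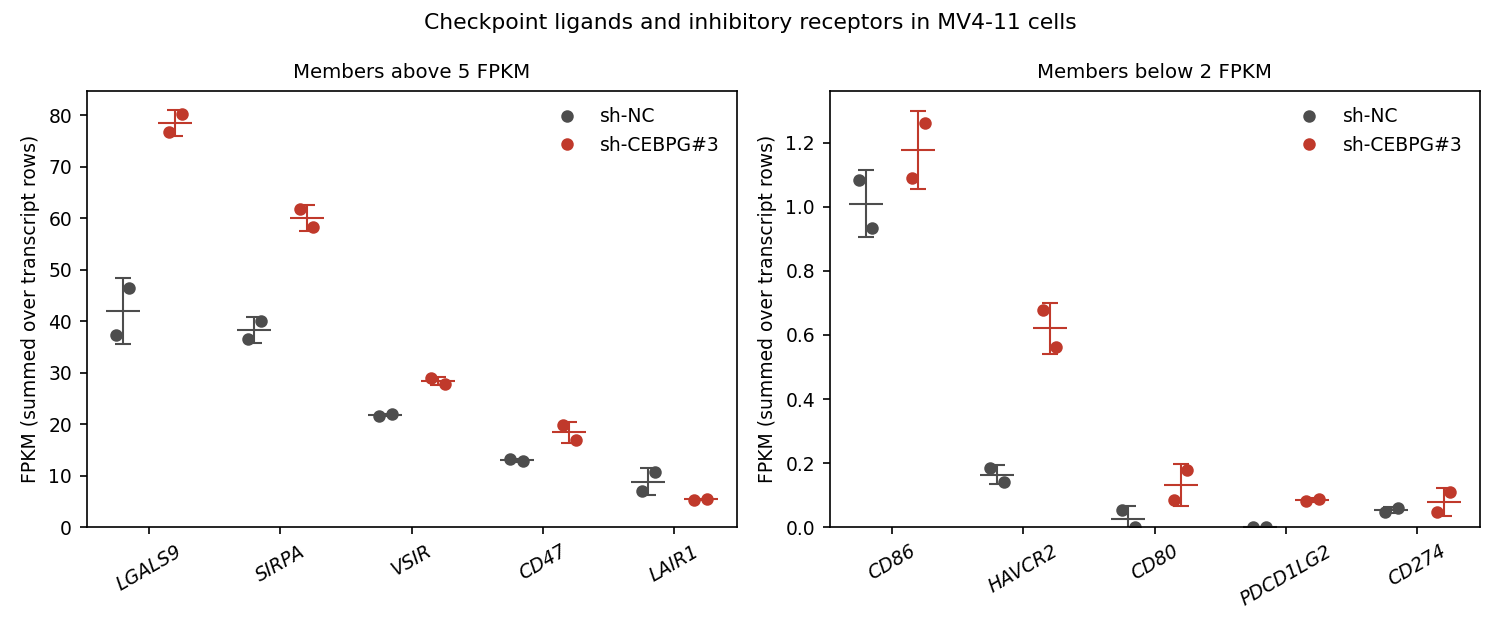
FPKM of each of the 10 genes (y axis, linear, per library) in the 2 sh-NC libraries (grey) and the 2 sh-CEBPG#3 libraries (red), with the mean as a dash and the SD as bars. LGALS9 and SIRPA stand at 76.7 or more and 58.3 or more FPKM in the knockdown libraries, while CD274, PDCD1LG2 and CD80 stay under 0.18 FPKM in every library.

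FPKM values are scaled by length, so levels can be ordered between genes. In sh-NC cells LGALS9 (41.9 ± 6.42 FPKM, SD, n = 2) and SIRPA (38.3 ± 2.58 FPKM) stood highest, and their libraries overlapped. They were followed by VSIR (21.8 ± 0.190 FPKM), CD47 (13.0 ± 0.316 FPKM), LAIR1 (8.86 ± 2.66 FPKM) and CD86 (1.01 ± 0.106 FPKM), each apart from its neighbour. HAVCR2 came next, and CD274, CD80 and PDCD1LG2 stood lowest, with libraries of CD274 and CD80 overlapping. In sh-CEBPG#3 cells the order of the first 7 was the same, and LGALS9 (78.5 ± 2.51 FPKM) no longer overlapped SIRPA (60.1 ± 2.47 FPKM). The 10 genes together summed to 117 and 133 FPKM in control libraries and 195 and 191 FPKM in knockdown libraries. LGALS9, SIRPA and VSIR made up 81.6% and 81.5% of these sums in the control and 86.0% and 87.1% in the knockdown.

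The ligands of PD-1 were next to silent in MV4-11 cells. PD-1 is the T cell receptor that limits activated T cells, and its ligands PD-L1 and PD-L2 are encoded by the neighbouring genes CD274 (chr9:5450542-5470554, GRCh38.p14) and PDCD1LG2 (chr9:5510531-5571282). CD274 (NM_014143) had 0.0467 and 0.0594 FPKM in sh-NC libraries and 0.0481 and 0.110 FPKM in sh-CEBPG#3 libraries, and the groups overlapped. PDCD1LG2 (NM_025239) is listed at 0 in both control libraries and had 0.0807 and 0.0893 FPKM in knockdown libraries. Without the filter on low values CD274 had a log2 difference of 0.03 (adjusted p = 0.631, limma) and PDCD1LG2 of 0.12 (adjusted p = 0.0704). With a pseudocount of 0.1 in place of 1 and no filter, a setting added once values had been seen, PDCD1LG2 passed (log2 difference 0.89, adjusted p = 0.0338, limma) and CD274 did not (0.21, adjusted p = 0.621). At these levels no fold change is given. The PD-1 gene itself, PDCD1, had 0.198 to 0.379 FPKM with overlapping groups.

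CD274 is known as an interferon-responsive gene, and most interferon-stimulated genes examined were higher in the knockdown libraries. Of 21 such genes, chosen with their rise already known, 19 were tested and 19 were higher, where 18.5% of all genes tested were. The median log2 fold change of the 19 was 3.2. Of these 19, 7 had a control mean under the filter and so were tested only because of the group in which they were high. MX1, which was not tested, had 0.122 to 0.235 FPKM over the 4 libraries, and the groups overlapped. IRF1, the factor most directly tied to CD274, had 8.59 and 8.38 FPKM against 9.36 and 9.29 FPKM, and its log2 fold change of 0.12 (95% interval -0.06 to 0.31) did not pass (adjusted p = 0.265, limma). The part of the interferon-stimulated genes in the changes of the checkpoint genes was not tested.

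The sequence before the CD274 start is shown because it holds the letters of interferon-responsive elements in a gene that stayed at or under 0.110 FPKM, and that of LGALS9 because it is the gene with the largest change among those tested. Both were taken from RefSeq (GRCh38.p14), 250 bases before the annotated start, 5′ to 3′ on the gene's plus strand. Capitals mark matches to TTTC, any 2 bases and TTTC (ISRE) and to the letters TTCNNNGAA (GAS), searched on both strands. The letters TTGCNNAA (a C/EBP pattern) and TGATGCAA (a C/EBP-ATF pattern) were searched as well.
CD274, chr9:5450292-5450541: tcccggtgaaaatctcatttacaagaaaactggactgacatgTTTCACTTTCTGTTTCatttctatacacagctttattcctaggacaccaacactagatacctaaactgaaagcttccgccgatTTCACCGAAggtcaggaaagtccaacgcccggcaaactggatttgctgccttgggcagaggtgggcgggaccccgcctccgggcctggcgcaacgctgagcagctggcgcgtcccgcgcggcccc
LGALS9, chr17:27630938-27631187: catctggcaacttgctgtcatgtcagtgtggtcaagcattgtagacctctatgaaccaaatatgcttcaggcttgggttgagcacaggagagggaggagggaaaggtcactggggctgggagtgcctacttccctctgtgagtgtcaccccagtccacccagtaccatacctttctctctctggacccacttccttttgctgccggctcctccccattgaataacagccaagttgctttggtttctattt

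The CD274 window held 2 overlapping ISRE matches, which begin 208 and 202 bases before the start, and 1 GAS match, which begins 125 bases before it. The LGALS9 window held none of the 4 patterns. Of 35116 windows of this length, 3.02% held the ISRE letters, 6.57% the GAS letters, 9.05% the C/EBP letters and 0.772% the C/EBP-ATF letters. Of the 10 genes, 7 had a window in this table, 9 windows in all, and no pattern was found in those of CD80, CD86, CD47, VSIR or LAIR1. PDCD1LG2, SIRPA and HAVCR2 had no window here. A match describes letters and not a bound site.

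The ligands of CD28 and CTLA-4, CD80 and CD86, were low. They give T cells the costimulatory signal through CD28 and the inhibitory one through CTLA-4. CD80 (NM_005191) had 0.0538 and 0 FPKM in sh-NC and 0.0843 and 0.178 FPKM in sh-CEBPG#3 libraries, and without the filter its log2 difference was 0.14 (adjusted p = 0.160, limma). CD86 (NM_175862) had 1.08 and 0.935 FPKM in sh-NC and 1.09 and 1.26 FPKM in sh-CEBPG#3 libraries. All of the CD86 knockdown values lay above the control values, by a narrow margin. Its log2 fold change was 0.11 (95% interval -0.17 to 0.40, adjusted p = 0.508, limma), so a change of CD86 was not detected, and the interval reaches a rise of 0.40. CTLA4 and CD28 had no row.

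CD47 and SIRPA both rose. CD47 is the surface protein by which cells signal to macrophages not to engulf them, and SIRPA is its inhibitory receptor on myeloid cells, with ITIMs in the tail. CD47 (chr3:108043091-108091031) had 13.2 and 12.8 FPKM in sh-NC and 19.9 and 17.0 FPKM in sh-CEBPG#3 libraries. Its log2 fold change was 0.47 (standard error 0.09, 95% interval 0.27 to 0.68, adjusted p = 0.00253, limma). SIRPA (chr20:1894167-1940592) had 36.4 and 40.1 FPKM in sh-NC and 61.8 and 58.3 FPKM in sh-CEBPG#3 libraries, both knockdown values far above both control values. The log2 fold change of SIRPA was 0.64 (standard error 0.08, 95% interval 0.46 to 0.81, adjusted p = 0.000153, limma). The ratio of SIRPA to CD47 in FPKM was 2.76 and 3.14 in sh-NC and 3.1 and 3.43 in sh-CEBPG#3 libraries, and the groups overlapped.

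The rise of SIRPA was carried by NM_001040022, the row with 95.7% to 98.2% of its FPKM in each library. Tested by itself among all transcript rows, NM_001040022 passed (log2 fold change 0.63, adjusted p = 0.0240, limma), where 8.24% of rows passed. SIRPB1, an activating paralog near SIRPA on chromosome 20 that can share reads with it, also rose, from 12.6 ± 0.162 to 16.7 ± 1.02 FPKM (SD, n = 2 each, log2 fold change 0.38, adjusted p = 0.00469, limma). The 2 rows of CD47 traded places between libraries of 1 group. NM_198793 took 94.3% and 45.8% of CD47 in control libraries and 85.1% and 95.3% in knockdown libraries, while NM_001777 took the rest. The sum of CD47 differed little between the sh-NC libraries, and neither row passed by itself (NM_198793, log2 fold change 0.87, 95% interval -0.07 to 1.82, adjusted p = 0.199, limma).

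LGALS9 rose most of the 6 tested genes. Most of the increase was listed in the row taken below as the long form, though how reads were divided between rows is not known. Galectin-9, its product, is a sugar-binding ligand of TIM-3, the inhibitory receptor encoded by HAVCR2, and the pair is known in AML for acting within the leukemic cells themselves. LGALS9 (chr17:27631188-27649560) had 37.4 and 46.4 FPKM in sh-NC and 76.7 and 80.3 FPKM in sh-CEBPG#3 libraries, with a wide gap between the groups. Its log2 fold change was 0.90 (standard error 0.10, 95% interval 0.68 to 1.12, adjusted p = 7.53e-05, limma), rank 368 from the highest of 12142 genes. Without sh-NC replicate 2, the higher control, it was 1.05 and passed the study's threshold. Rows for the near-identical genes LGALS9B and LGALS9C are 0 in number, so reads shared with them cannot be told apart from those of LGALS9.

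**Figure D2:**
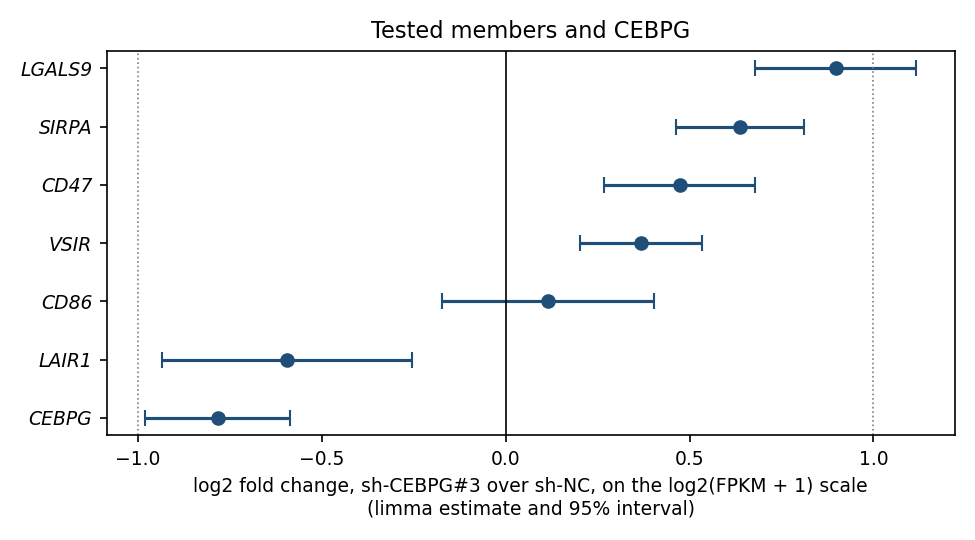
Log2 fold changes of sh-CEBPG#3 over sh-NC on the log2(FPKM + 1) scale (x axis) with 95% intervals from limma for the 6 tested genes and CEBPG, with dotted lines at -1 and 1. The intervals of LGALS9, SIRPA, CD47 and VSIR lie above 0, that of CD86 (-0.17 to 0.40) spans 0, and that of LAIR1 lies below 0.

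The long and the short form of galectin-9 differ in the linker between the 2 sugar-binding domains. In the GENCODE annotation (GRCh38) the coding sequences of ENST00000395473.7 and ENST00000302228.9 differ by 1 exon, exon 5 of 11, with 96 bases or 32 codons, on the plus strand. That exon is shown because it separates the 2 annotated forms, to which the expression rows below are matched by name only.
LGALS9 exon 5, chr17:27643525-27643620: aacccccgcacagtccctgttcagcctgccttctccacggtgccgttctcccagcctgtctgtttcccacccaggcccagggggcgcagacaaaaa

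By RefSeq naming, taken from background knowledge and not from the files, NM_009587 is the long form and NM_002308 the short one. NM_009587 had 8.99 and 13.0 FPKM in sh-NC and 34.6 and 37.9 FPKM in sh-CEBPG#3 libraries, a 3.29-fold rise in the mean. NM_002308 had 26.2 and 31.6 FPKM in sh-NC and 39.9 and 35.5 FPKM in sh-CEBPG#3 libraries, a 1.31-fold higher mean. The row taken as the long form thus went from 26.1% ± 2.85 to 46.2% ± 1.44 of LGALS9 (SD, n = 2 each). It carried 69.0% of the increase in the gene's mean FPKM. Tested row by row, NM_009587 passed (log2 fold change 1.65, 95% interval 1.14 to 2.16, adjusted p = 0.0249, limma) and NM_002308 did not (0.38, 95% interval 0.04 to 0.71, adjusted p = 0.143). The ratio of the long to the short row was 0.343 and 0.413 in sh-NC and 0.867 and 1.07 in sh-CEBPG#3 libraries. An exact two-sided permutation test of this ratio gave p = 0.333, the smallest p that groups of 2 allow. The remaining row, the non-coding NR_024043, had 1.82 to 6.91 FPKM. How the reads were divided between overlapping rows is not given in the sources used here. Shares of rows can differ within a group, as for NM_198793 of CD47 (94.3% and 45.8% in sh-NC libraries), so a shift between LGALS9 forms remains uncertain.

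HAVCR2 stayed low and was higher in both knockdown libraries. HAVCR2 (NM_032782, chr5:157085832-157109044) had 0.184 and 0.142 FPKM in sh-NC and 0.677 and 0.564 FPKM in sh-CEBPG#3 libraries, and the groups did not overlap. Its mean went from 0.163 ± 0.0297 to 0.620 ± 0.0805 FPKM (SD, n = 2 each). Without the filter on low values its log2 difference was 0.48 (adjusted p = 0.0110, limma), and with a pseudocount of 0.1 in addition it was 1.45 (adjusted p = 0.0147). Under the filter HAVCR2 is not counted among the genes that rose. In each of the 4 libraries HAVCR2 stood far below LGALS9, and no ratio is given because HAVCR2 was near the low end of the table.

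VSIR rose least of the 4. It encodes VISTA, a B7-like protein of myeloid cells that acts on T cells both as a ligand and as a receptor. VSIR (NM_022153, chr10:71747556-71773520) had 21.7 and 21.9 FPKM in sh-NC and 28.9 and 27.9 FPKM in sh-CEBPG#3 libraries, with tight values in both groups. Its log2 fold change was 0.37 (standard error 0.07, 95% interval 0.20 to 0.53, adjusted p = 0.00322, limma). In the test of all transcript rows, where VSIR has this single row, the same difference had an adjusted p = 0.0505. SELPLG, which encodes the VISTA partner PSGL-1, had 29.1 and 32.7 FPKM against 36.2 and 34.8 FPKM and did not pass (log2 fold change 0.20, adjusted p = 0.0756, limma).

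LAIR1 moved the other way. It encodes an inhibitory receptor for collagen with ITIMs in the tail and is known to sustain AML cells in experimental models. LAIR1 (chr19:54351384-54376088) had 6.98 and 10.7 FPKM in sh-NC and 5.31 and 5.51 FPKM in sh-CEBPG#3 libraries. Its log2 fold change was -0.59 (standard error 0.15, 95% interval -0.93 to -0.25, adjusted p = 0.0106, limma). The call rested on sh-NC replicate 2, since without this library it was -0.32 (adjusted p = 0.0510, limma), and it also did not pass without the filter on low values (adjusted p = 0.0965). LAIR1 has 7 rows. NM_001289026 had 1.65 and 3.73 FPKM in control libraries and is listed at 0 in both sh-CEBPG#3 libraries, and by itself it did not pass (adjusted p = 0.0540, limma). Summed over the other rows, LAIR1 had 5.32 and 7.01 FPKM in sh-NC and 5.31 and 5.51 FPKM in sh-CEBPG#3 libraries, and the groups overlapped.

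Among the binding partners of the 10 genes, few were expressed. Of the list of 15, which also holds SIRPB1, a paralog of SIRPA rather than a partner, 12 were listed and 3 were tested. SIRPB1 rose, HMGB1 fell and SELPLG did not pass, so the only rise in this list was not that of a partner. HMGB1, a nuclear protein that binds TIM-3 when released, went from 136 ± 10.3 to 107 ± 3.66 FPKM (SD, n = 2 each, log2 fold change -0.34, adjusted p = 0.00566, limma). Of 39 other checkpoint ligands and inhibitory receptors, 27 were listed and 17 tested, of which 7 rose, 2 fell and 8 did not pass. Beside both lists, 18.5% of all genes tested rose and 23.8% fell. Both, like the lists below, were chosen with earlier results of these data known. The largest rise was that of PILRA, an ITIM receptor of myeloid cells, from 1.90 ± 0.00992 to 10.1 ± 2.91 FPKM (log2 fold change 1.92). HHLA2, a B7 family ligand, followed (1.06), from a control mean of 0.110 FPKM that is under the filter. SIGLEC10, the receptor of CD24 on macrophages, had a log2 fold change of 0.92. NCR3LG1 fell most (17.1 ± 0.655 to 10.1 ± 0.0908 FPKM, log2 fold change -0.70, adjusted p = 0.000104, limma). It encodes B7-H6, the ligand of an activating receptor of natural killer cells, so the largest fall was not that of an inhibitory ligand. BTN2A1 fell by 0.27. The median over the 17 was 0.12, and by the most abundant row 2 rose and 1 fell, where 10.7% of all genes passed.

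Costimulatory ligands and receptors signal to activate rather than to inhibit. Of 12 such genes, 11 were listed and 8 tested, of which 6 rose, none fell and 2, CD58 and TNFSF14, did not pass. Over all genes tested 18.5% rose and 23.8% fell. The median log2 fold change of the 8 was 0.86, in a list chosen with earlier results of these data known. CD70, the ligand of CD27, went from 106 ± 4.72 to 211 ± 3.53 FPKM (SD, n = 2 each, log2 fold change 0.98). SLAMF7 (2.21), CD48 (1.59) and CD40 (1.57) had the largest changes on this scale. SLAMF7, which takes part in the engulfment of blood cells by macrophages, went from 0.0578 ± 0.0411 to 3.90 ± 0.146 FPKM. SLAMF7 and CD40 had control means under the filter and were tested because of their knockdown values. The count of lower genes was also 0 at an unadjusted p under 0.05, and TNFSF14, the sole tested gene with a lower mean, had a log2 fold change of -0.20 (adjusted p = 0.196, limma).

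**Figure D3:**
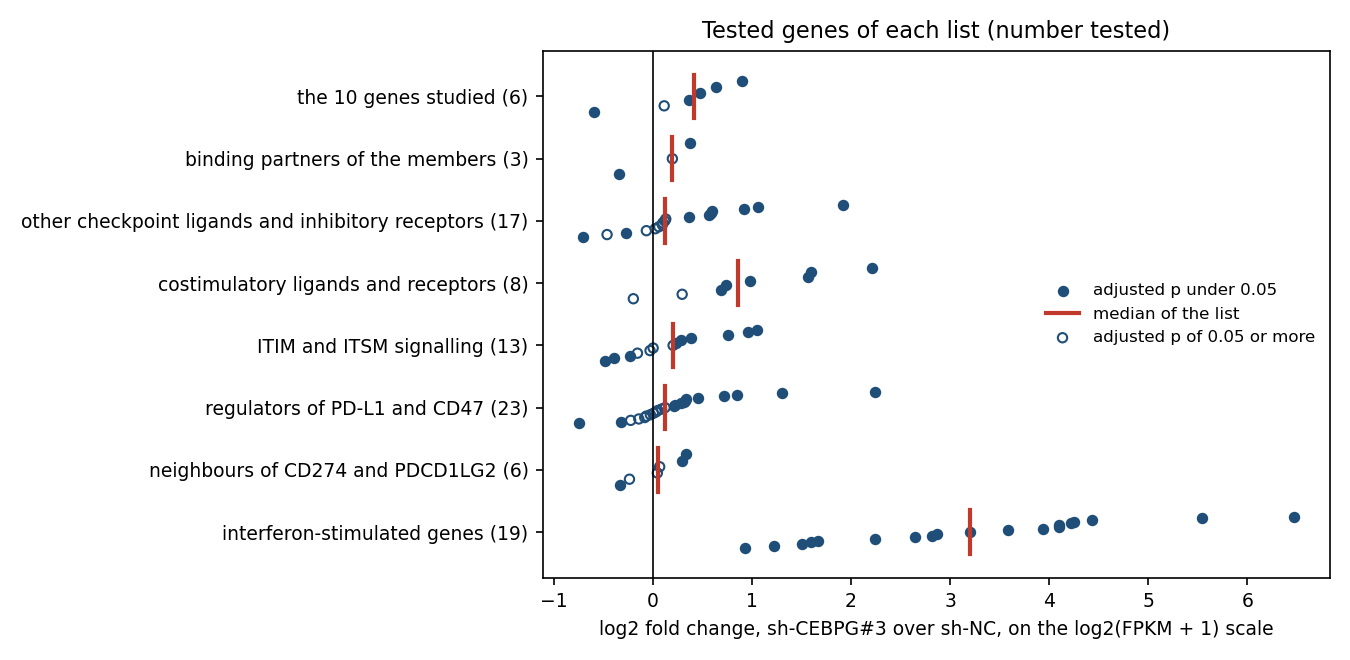
Log2 fold changes on the log2(FPKM + 1) scale (x axis) of the tested genes of each list (rows, with the number tested), filled where the adjusted p was under 0.05, with the list's median as a red bar. The 10 genes studied have a median of 0.42 over the 6 tested, the costimulatory list 0.86 and the interferon-stimulated genes 3.2. Of the 8 costimulatory genes 2, and of the 19 interferon-stimulated genes 7, were tested only because of their knockdown values. All lists were chosen with earlier results of these data known, and the interferon-stimulated genes with their rise known. These medians thus cannot be compared like for like.

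Of 13 genes in a list for ITIM and ITSM signalling, all tested, 6 rose, 3 fell and 4 did not pass, with a median log2 fold change of 0.20. By the most abundant row 2 rose and 0 fell, where 10.7% of all genes passed, against 42.2% in the main test. PTPN6, which encodes SHP-1, went from 96.8 ± 3.85 to 114 ± 3.02 FPKM (SD, n = 2 each, log2 fold change 0.23, adjusted p = 0.0233, limma), while PTPN11, which encodes SHP-2, had 35.8 ± 1.56 and 32.0 ± 1.24 FPKM and did not pass (-0.16, 95% interval -0.32 to 0.01, adjusted p = 0.128). TYROBP, the adaptor DAP12 of activating receptors such as SIRPB1, rose most (1.05). Since it serves activating receptors, the largest rise in this list was not that of an inhibitory signalling gene. The SRC family kinase FGR followed (0.96). LYN, the SRC family kinase best known for phosphorylating ITIMs, fell (-0.39), as did FYB1 (-0.48), an adaptor that binds SKAP2, and CSK (-0.23), the inhibitor of that kinase family.

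Of 23 regulators of PD-L1 and CD47, all tested, 11 rose, 2 fell and 10 did not pass, where 42.2% of all genes tested passed, and the median was 0.12. The count that rose was 6 without sh-NC replicate 1, 5 without sh-CEBPG#3 replicate 1, 7 with no filter and 3 by the most abundant row. With no filter 24.8% of all genes passed, and by the most abundant row 10.7% did. Among the regulators that rose were QPCT (1.31), a glutaminyl cyclase, and ADAM17 (0.85), a protease that sheds surface proteins. CMTM6, which keeps PD-L1 from degradation, went from 38.4 ± 1.15 to 48.0 ± 4.13 FPKM (SD, n = 2 each, log2 fold change 0.31, adjusted p = 0.0115, limma). QPCTL, the enzyme known to modify CD47 for binding by SIRPA, had 8.52 ± 0.466 and 7.15 ± 0.361 FPKM and did not pass (-0.22, 95% interval -0.43 to -0.02, adjusted p = 0.0718). MYC fell from 233 ± 22.7 to 138 ± 2.21 FPKM (-0.75), and COPS5, a subunit of the COP9 signalosome that stabilizes PD-L1, fell by 0.32. Of 11 neighbours of CD274 and PDCD1LG2 on chromosome 9, 7 were listed and 6 tested. Of these JAK2 (0.34) and PLGRKT (0.30) rose, UHRF2 fell (-0.33) and 3 did not pass. Over all genes tested 18.5% rose and 23.8% fell. The count of 2 that rose was 0 with no filter, by the most abundant row, without sh-NC replicate 1 and without sh-CEBPG#3 replicate 1, and 1 without either other library. UHRF2 did not pass by the most abundant row or without sh-CEBPG#3 replicate 2. JAK2, a kinase of the interferon gamma receptor, had 3.49 and 3.49 FPKM in sh-NC and 4.86 and 4.52 FPKM in sh-CEBPG#3 libraries. It is counted in both lists, among the regulators and among the neighbours.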

How the data were processed

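Bulk RNA-seq libraries of MV4-11 cells, 2 with sh-NC and 2 with sh-CEBPG#3, were used. The authors cleaned and aligned reads (HISAT2 2.0.5 and hg38 in the submitters' processing notes) and deposited an FPKM value for each RefSeq transcript in each library, without pooling. The program that made FPKM is not given in the sources used here. FPKM values hold no counts, so depth is unknown and no count model or counting interval applies. From 28581 transcript rows with values, FPKM was summed by symbol (164 rows have none and stand alone). Genes averaging 0.5 FPKM or more were compared on log2(FPKM + 1), which understates changes of low genes, by limma 3.58.1 (R 4.3.3, empirical Bayes with a mean trend). Benjamini-Hochberg adjustment covered 12142 genes. The code was tested on simulated data.

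The 10 genes and all lists were chosen with earlier results of these data known. Named beside the 10 are CEBPG, direct partners, the 3 largest called increases and decreases of each list (some given only within counts, and some not reported here), and the 5 genes nearest in pattern to LGALS9. SELPLG, TNFSF14 and the cell markers were named outside this rule, after their values were seen. Settings varied were the pseudocount (0.1 or 0.01), the filter (none, or 1 FPKM), the scaling (quantile or equal totals), a block on replicate number, single libraries left out, and the most abundant row per gene. For that last setting the fit and its adjustment covered all 18624 transcript rows tested. Sequences come from RefSeq (GRCh38.p14) and GENCODE tables, read with Python 3.11.15.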

Additional observations from a re-analysis of the deposited data

How the results depend on the processing

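SIRPA (0.57 to 0.70 with a library left out), CD86 (0.06 to 0.17) and CEBPG (-0.87 to -0.70) kept their direction and their side of an adjusted p of 0.05 under all 13 alternatives, and no result changed direction. Of the 10 genes, 4 were higher. With no filter 5 were, as HAVCR2 (0.677 FPKM at most) was added, where 24.8% of all genes passed. Unfiltered at a pseudocount of 0.1 (added once values had been seen) 6 were, where 25.6% of all genes passed. The gene added there was PDCD1LG2, listed at 0 in both control libraries. For the most abundant row of each gene, tests were taken from the fit over all 18624 transcript rows. Its p-values thus differ from the main ones also for a gene with 1 row, such as VSIR. By the most abundant row of each gene 1 was higher, where 640 genes rose and 645 fell in all against 2244 and 2884, and CD47 (0.87, adjusted p = 0.199, limma), LGALS9 (0.38, adjusted p = 0.143), VSIR (0.37, adjusted p = 0.0505) and LAIR1 (-0.16, adjusted p = 0.804) did not pass. The count of lower genes among the 10 was 0 by that row and without the filter at either pseudocount, and 0 to 1 with a library left out (0 without sh-NC replicate 2). The count past a log2 change of 1 was 1 with no filter and a pseudocount of 0.1 (HAVCR2) and 0 to 1 with a library left out (LGALS9, without sh-NC replicate 2).

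A library left out leaves 1 in its group, assumed to vary like the other group, and the counts over all genes were then 1552 to 2416 higher and 2032 to 3038 lower. Binding partners had 2 higher with quantile normalization and equal totals, 3 with no filter and a pseudocount of 0.1, 0 by most abundant row and 1 to 2 with a library left out (2 without sh-NC replicate 2), and 0 lower by most abundant row and 0 to 1 with a library left out (0 without sh-CEBPG#3 replicate 2). Other checkpoint genes had 2 higher by most abundant row and 5 to 7 with a library left out, and 1 lower with pseudocounts of 0.1 and 0.01, without the filter and by most abundant row, and 1 to 3 with a library left out (1 without sh-CEBPG#3 replicate 2). ITIM and ITSM signalling genes had 2 higher by most abundant row (4 to 6 with a library left out), and 1 lower with no filter and 0 by most abundant row (2 to 3 with a library left out). Regulators had 7 higher with no filter, 3 by most abundant row and 5 to 10 with a library left out (6 without sh-NC replicate 1 and 5 without sh-CEBPG#3 replicate 1), and 1 lower by most abundant row and 1 to 2 with a library left out (1 without sh-CEBPG#3 replicate 1). Neighbours of CD274 had 0 higher without the filter and by most abundant row and 0 to 1 with any library left out, and 2 lower with equal totals, 0 by most abundant row and 0 to 1 with a library left out (0 without sh-CEBPG#3 replicate 2). For all of these the cause was not tested.

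A block on replicate number gave 2088 genes higher and 2673 lower, with 4 and 1 of the 10 genes as before and -0.78 for CEBPG. Deviations of libraries with the same number had a correlation of 0.061 over genes, so the numbers were not taken as pairs. With 2 libraries a group and no counts, the error of low genes cannot be set against depth.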

Other observations

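The 5 genes whose pattern was nearest to that of LGALS9 over the 4 libraries, by the Euclidean distance of centred log2(FPKM + 1) values, were TREX1 (distance 0.03), GABARAPL1 (0.06), PDGFA (0.07), RNH1 (0.10) and OCIAD2 (0.10). TREX1, a nuclease that clears cytosolic DNA, had 5.36 and 6.73 FPKM in sh-NC and 12.0 and 12.7 FPKM in sh-CEBPG#3 libraries. Distances over 4 libraries of 2 groups mostly rank genes by the size of the same difference.

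Among the low genes outside the tests, values of some are given here with no test. TNFRSF9, the receptor of the TNFSF9 product, had 0.0327 and 0.0475 FPKM in sh-NC and 0.343 and 0.382 FPKM in sh-CEBPG#3 libraries. SIGLEC7, an inhibitory receptor of natural killer cells and monocytes, had 0.0833 and 0 FPKM against 0.313 and 0.348 FPKM. TNFSF4, a costimulatory ligand, lay the other way, with 0.284 and 0.239 FPKM against 0.177 and 0.109 FPKM. The leukocyte immunoglobulin-like receptors LILRB1, LILRB2 and LILRB3 stayed at or under 0.0797 FPKM in all 4 libraries, while LILRB4, which is known in monocytic AML, rose from 1.45 ± 0.125 to 2.62 ± 0.105 FPKM (SD, n = 2 each, log2 fold change 0.57, adjusted p = 0.00304, limma). The genes of the TNFRSF9, SIGLEC7, TNFSF4 and LILRB comparisons were chosen after their values were seen.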
